A study of Drosophila melanogaster with 2 samples.

Results

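The peaks described here are the 1485 binding sites of ADD1 on the X chromosome of Drosophila melanogaster, out of 7944 in the authors' reproducible list, which they thresholded by irreproducible discovery rate (IDR). They were chosen by chromosome alone and set against the 1427 peaks on 2L, the 1688 on 3L and the 1753 on 3R. The source was whole embryos, 0 to 24 h old and of both sexes, from transgenic flies whose ADD1 protein ends in a GFP tag. An anti-GFP antibody precipitated it after sonication (size range 200 to 800 bp) in 2 biological replicates of 1 group, so every comparison below is between chromosome arms within the same libraries. A single tagged line was the source of both replicates, no second condition was analysed here, and the labels do not name the promoter that drives the fusion. The unit of each peak's signal was not stated by the authors, so it is used to rank peaks only, and read depth is unknown.

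ADD1 belongs to the chromatin proteins that carry an ADD domain, a zinc finger fold that reads the histone H3 tail, and it binds HP1a, the main protein of heterochromatin. The fly X is the chromosome on which males, which carry a single copy of it, raise transcription through dosage compensation. The MSL complex with its roX RNAs does this after entering the X at sites rich in GA repeats, which the zinc finger protein CLAMP binds.

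The sequences of the 5 strongest X peaks that lay more than 500 bp from any annotated transcription start are given here. The summits of ph-p and CG17896 were barely past that bound, at 506 and 507 bp, and the others lay between 1375 and 2260 bp from a start. Each sequence is centred on the summit, is on the forward strand of assembly dm6, and is wholly in lower case because none holds any of the 8 binding words searched (described with the words below). Lower case does not mark repeats here, although the ph-p summit lies in soft-masked sequence. The first lies in an intron of ph-p at chrX:2137286-2137436, the next between genes near CG17896 at chrX:493927-494077, and the others in introns of CG3726 at chrX:5918857-5919007, norpA at chrX:4324909-4325059 and Raf at chrX:2297651-2297801.
ph-p: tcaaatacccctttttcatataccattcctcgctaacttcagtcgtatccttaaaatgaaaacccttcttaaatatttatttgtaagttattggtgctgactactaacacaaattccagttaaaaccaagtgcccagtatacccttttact
CG17896: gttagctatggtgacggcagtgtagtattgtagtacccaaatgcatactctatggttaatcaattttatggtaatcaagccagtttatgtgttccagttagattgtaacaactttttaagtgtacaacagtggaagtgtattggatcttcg
CG3726: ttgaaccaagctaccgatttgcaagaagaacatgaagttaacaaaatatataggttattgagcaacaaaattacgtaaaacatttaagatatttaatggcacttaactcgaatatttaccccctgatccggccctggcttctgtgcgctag
norpA: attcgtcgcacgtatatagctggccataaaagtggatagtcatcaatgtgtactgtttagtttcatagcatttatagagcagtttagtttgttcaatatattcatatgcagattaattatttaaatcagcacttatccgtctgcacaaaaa
Raf: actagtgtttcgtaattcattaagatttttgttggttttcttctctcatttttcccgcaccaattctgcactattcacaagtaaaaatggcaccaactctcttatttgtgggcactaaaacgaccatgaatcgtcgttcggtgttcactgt
The GC content of these 5 stretches lay between 32.5% and 38.4%, below the 42.5% of the whole X.

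The X held slightly more peaks per unit of sequence than the autosomal arms. The X held 63.3 peaks per Mb of ungapped sequence, against 60.7 on 2L, 60.3 on 3L and 54.7 on 3R. Against those 3 arms together the X was 1.09 times as dense (95% interval 1.02 to 1.15, exact binomial test, two-sided, adjusted p = 0.0116 over 4 arms). 3R was the arm that differed most, at 0.891 times the density of the others (adjusted p = 0.00015, same exact test). The first 1-Mb windows of 3R, at its centromere side, held 0, 0, 0 and 5 peaks. Those of 3L between bases 23000001 and 28000000 held 6, 4, 3, 2 and 5, and the last full window of X held 9. This nearly empty sequence counts in the densities per Mb. The X had fewer places to bind at starts, with 151 merged transcription starts per Mb against 179 on 2L, 152 on 3L and 159 on 3R, and hence 0.420 peaks per start against 0.340, 0.396 and 0.345 on these 3 arms. Males carry a single X and both sexes were pooled, so the embryos held fewer copies of the X than of the autosomes. Whether the control used in peak calling corrects for this was not tested, and this limit holds for each comparison of peak number or signal between X and the other arms.

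The difference in density per Mb did not exceed the variation along the arms. A quasi-Poisson fit to windows of 100 kb, in which the spread between windows sets the error, gave the same ratio of 1.09 with an interval of 0.948 to 1.24, which includes 1. Taken per start in these windows the ratio was 1.17, with an interval of 1.03 to 1.33 that excludes 1 before adjustment over the 4 arms, and it did not pass after adjustment. The ratio per Mb was 1.01 (exact binomial test, adjusted p = 0.706) once windows with at least 30% soft-masked repeats were left out, which held 53 peaks in 1.84 Mb on X against 41 in 4.88 Mb on 3L, and 1.04 (adjusted p = 0.242) with the 7944 strongest peaks of replicate 1 alone.

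Along the X the peaks were fewest near the centromere. The 23 full windows of 1 Mb held between 9 and 106 peaks (mean 64.4 ± 24.2 SD over windows, median 67), against medians of 66 on 2L, 62.5 on 3L and 56.5 on 3R. The densest window began at base 6000001, and its strongest peaks lay at Fum1, which encodes fumarase, at CG4586 and in Marf, the mitofusin gene. The emptiest began at base 22000001, where the strongest of the 9 peaks, at mir-2491, had a signal of only 306.8 and ranked 592 of the 1485. Windows with more starts held more peaks (Pearson's r = 0.579 over the 23 windows, a description, since neighbouring windows share sequence and both counts come from the same arm), and the counts of the replicates followed each other with r = 0.957.

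**Figure D1:**
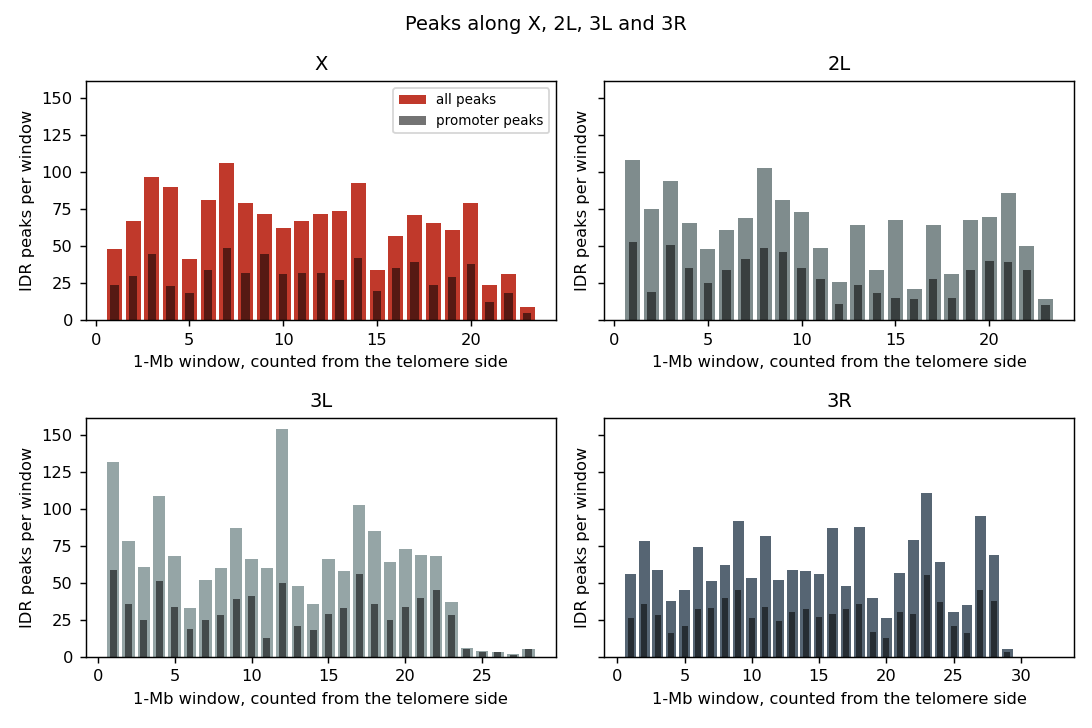
Peaks per full 1-Mb window (vertical axis, count) along X, 2L, 3L and 3R, with windows numbered from the end nearer the telomere (horizontal axis). Wide bars are all IDR peaks and narrow dark bars those within 500 bp of a start. On X the counts lie between 9 and 106 and are lowest at the centromere side.

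A summit in an intron was more common on X than elsewhere, while the share at promoters did not differ detectably. Introns outside promoters held 596 X summits, or 40.1% (exact 95% interval 37.6 to 42.7), against 32.6% on 2L, 31.6% on 3L and 36.5% on 3R. The X share was 1.19 times that of the other 3 arms together (Fisher's exact test, two-sided, adjusted p = 2.30e-05 over 4 arms; this test was added after the shares had been seen), and 3L, at 0.868 times, differed from the other arms as well (adjusted p = 0.000798, same exact test). Intron sequence made up 43.5% of the X against 36.5% of 2L, 37.1% of 3L and 43.1% of 3R, and per Mb of intron the X held 58.4 peaks against 54.2, 51.4 and 46.2 on these arms. Intergenic sequence held 9.29% of X summits against 15.1% on 2L, 17.5% on 3L and 10.8% on 3R. Per Mb of intergenic sequence the X held 26.31 peaks, below 32.17 on 2L and 33.04 on 3L but above 24.82 on 3R. The 3' UTRs held 1.95% against 0.841%, 0.829% and 1.43%, from counts of only 29 on X and 12, 14 and 25 on these arms. Per Mb of 3' UTR these were 20.82 on X against 12.38, 13.16 and 17.79. Neither the intergenic nor the 3' UTR difference was tested.

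Promoters, taken as 500 bp on either side of any start, held 687 X summits, or 46.3% (43.7 to 48.8). The shares were 49.2% on 2L, 47.6% on 3L and 48.7% on 3R, and the X share was 0.955 times that of these 3 together (Fisher's exact test, adjusted p = 0.584). Promoter sequence was also least on X, at 12.6% against 14.9%, 12.8% and 13.3%, so that promoters held 3.66 times their share of the sequence on X and 3.31, 3.71 and 3.65 times on the other arms. Among the stronger 3972 peaks of the IDR list the promoter share was lower on X, at 51.2% against 57.1% on the other 3 arms (ratio 0.896, adjusted p = 0.0181, same exact test).

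**Figure D2:**
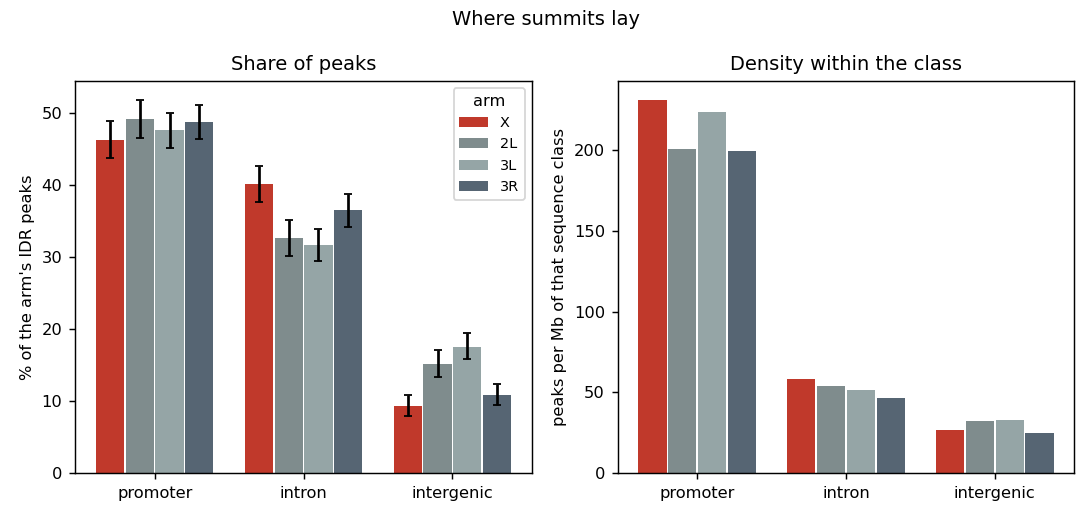
Left, percent of each arm's IDR peaks with the summit in promoters, introns and intergenic sequence, with exact 95% intervals that cover counting error only. Right, peaks per Mb of each class. X (red, left bar of each group) has 40.1% of its summits in introns and the highest intron density, 58.4 per Mb.

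The strongest peaks were over-represented on X, and the excess lay away from promoters. The lower copy number of the X in pooled embryos, given above, was not accounted for here either. Of the strongest 20% of peaks of the 4 arms, those with a signal of at least 457.7, the X held 333. This was 22.4% of its peaks (20.3 to 24.6), against 20.1% on 2L, 17.1% on 3L and 20.7% on 3R. The ratio to the 3 arms together was 1.16 (Fisher's exact test, adjusted p = 0.0170), with 3L at 0.810 times the other arms (adjusted p = 0.00153), and with replicate 2 alone the X ratio was 1.07 (adjusted p = 0.331). Among the 100 strongest peaks of the whole list 31 were on X, against 16 on 2L, 15 on 3L and 16 on 3R, and in the replicates taken singly the X held 27 of the 100 strongest in replicate 1 and 32 in replicate 2.

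When the strongest 20% were taken among non-promoter peaks only, 204 of 798 X peaks were among them, or 25.6% (22.6 to 28.7), against 19.4% on 2L, 15.9% on 3L and 19.5% on 3R. The X share was 1.40 times that of the others (Fisher's exact test, adjusted p = 3.79e-05). That of 3L was 0.742 times that of its other arms (adjusted p = 0.000798, same exact test), and 3L is part of the reference for X. In each replicate alone the X share was higher than that of the other 3 arms. It was 25.2% against 18.4% in replicate 1 and 23.5% against 18.9% in replicate 2. Among promoter peaks the X share was 20.2% (17.3 to 23.4), against 21.5% on 2L, 17.1% on 3L and 21.3% on 3R (ratio to the others 1.02, same exact test, adjusted p = 0.871). The contrast between both kinds of peak was itself tested, after these shares had been seen, by a logistic fit over the 6353 peaks. This fit used the common bound of 457.7 for both kinds, not the separate bounds behind the shares just given. By that bound the odds ratio of X for a strong peak was 1.48 away from promoters and 1.04 at promoters. The odds ratio at promoters was 0.703 times that away from promoters (95% interval 0.529 to 0.933). This factor was 0.697 in replicate 1 (0.524 to 0.927) and 0.723 in replicate 2 (0.540 to 0.968). These tests treat peaks as independent although neighbours share a locus, and an exact permutation over the 4 arms could not give a p below 0.25.

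**Figure D3:**
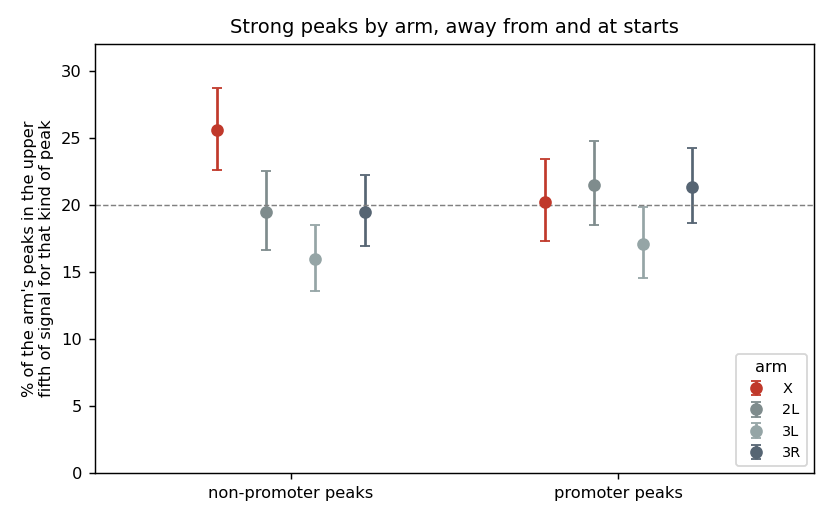
Percent of each arm's peaks (vertical axis) among the strongest 20% by signal, set separately for non-promoter peaks (left) and promoter peaks (right), with exact 95% intervals and a dashed line at the share over all 4 arms. X stands at 25.6% away from promoters, above 2L, 3L and 3R, and at 20.2% at promoters, within the range of these arms.

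Among strong peaks the promoter share was thus lower on X than elsewhere. Over 5 equal steps of signal, from strongest to weakest, it was 51.1%, 52.2%, 48.2%, 45.4% and 34.1% on X. In the strongest step it was 62.7% on 2L, 58.3% on 3L and 60.3% on 3R, all above the 51.1% of X, while in the weakest it was 38.3%, 39.3% and 36.7%. At the signal bound of 457.7, 127 of the 596 X intron peaks were strong, or 21.3%, against 14.4% on 2L, 13.5% on 3L and 16.3% on 3R (243 of 1638 over the 3, or 14.8%). Strong intergenic peaks were about as frequent on X, at 17.4%, as on 2L, at 16.7%, 3L, at 15.2%, and 3R, at 15.3%. Intron peaks on X stood a median of 2790 bp from the nearest start, against 2656 bp on 2L, 2577 bp on 3L and 2618 bp on 3R, and 15.3% of them were more than 10000 bp from any start, against 11.6%, 8.61% and 13.5%.

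The 127 strong intron peaks of X were spread over 90 genes, of which 68 held a single such peak and 9 held at least 3. Hr4, which encodes a nuclear receptor of the ecdysone response, held 5, with a highest signal of 1943.6. Those with 4 each were CHES-1-like, a forkhead transcription factor gene, Evi5, a Rab GTPase regulator, Raf, the kinase that relays receptor tyrosine kinase signals to MAP kinase, and Tlk, the Tousled-like kinase of chromatin assembly. NFAT, prage, Unc-76 and Zdhhc8 held 3 each. Of the 127, 102 held none of the 8 words within 100 bp of the summit. The genes of this paragraph were picked by their counts, so the counts are a description.

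Ugalt, which encodes a Golgi transporter of UDP-galactose, had the strongest X peak, 44 bp from its start at chrX:2703717-2704092. Its signal was 8713.1 in the joint list, 5078.9 in replicate 1 and 3669.8 in replicate 2, and it ranked 2 of all peaks in each of these lists. The intron peak of ph-p, a Polycomb gene, at chrX:2136983-2138140 was next on X with 5815.8, and stood at rank 4 in replicate 1 and rank 13 in replicate 2. It was 1158 bp wide, against a median of 222 bp on X, and its summit lay in soft-masked repeat sequence. The same held for the summits at LPCAT, CHES-1-like and mnb named below, which were soft-masked as well. MFS10, a gene of the major facilitator transporters, followed with 4832.6 at chrX:13131133-13131663, moody, whose receptor is needed for the blood-brain barrier, with 4542.6 at chrX:2050099-2050481, and the intergenic peak near CG17896 with 4461.5 at chrX:493719-494318. All 5 ranked within the 25 strongest of both replicates.

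Outside 50 kb of the roX genes, the 25 strongest X peaks comprised 11 at starts, 13 in introns and 1 between genes. Among the 25 strongest of each other arm, 13 on 2L, 16 on 3L and 17 on 3R were at starts, and 10, 7 and 4 were in introns. The X count was also the highest of the 4 arms in each replicate ranked alone, with 12 X introns in replicate 1 against 9 on 2L, 7 on 3L and 4 on 3R, and 14 in replicate 2 against 9, 10 and 7. Of the 25 X peaks, 20 were within the 100 strongest of both replicates and all 25 within the 200 strongest.

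Signals of the other intron peaks ran downward from CG3726. It had 4112.5, norpA, the phospholipase C of phototransduction, had 3904.1, and Raf had a pair of peaks with 2937.8 and 2889.9, at 2260 and 5234 bp from the nearest start. Tlk had 2866.9, LPCAT, an enzyme of phospholipid remodelling, 2770.7, NFAT, a transcription factor, 2686.6, and CHES-1-like 2482.5. The others were CG1737, CG32772, mnb, the minibrain kinase, and a second peak of egh, with signals between 1975.4 and 2183.9. All 13 intron peaks were at least 506 bp and at most 5413 bp from a start.

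The peaks at starts included regulators and metabolic genes. Atf3, a basic leucine zipper factor gene, had 4041.3 and Fum1 2554.0, a peak that also lies near the start of ND-ASHI, a complex I subunit. The start of egh, which encodes a mannosyltransferase of glycolipids, had 2499.1, that of dnc, the cAMP phosphodiesterase of learning, 2343.3, and that of Hmt4-20, the histone H4 lysine methyltransferase, 2314.3. The kinase gene sgg, of Wnt signalling, had 2086.3, CG4586 2057.1 and TRAM 1968.7. CG32772 differed most between replicates in rank, at 56 in replicate 1 and 163 in replicate 2.

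**Figure D4:**
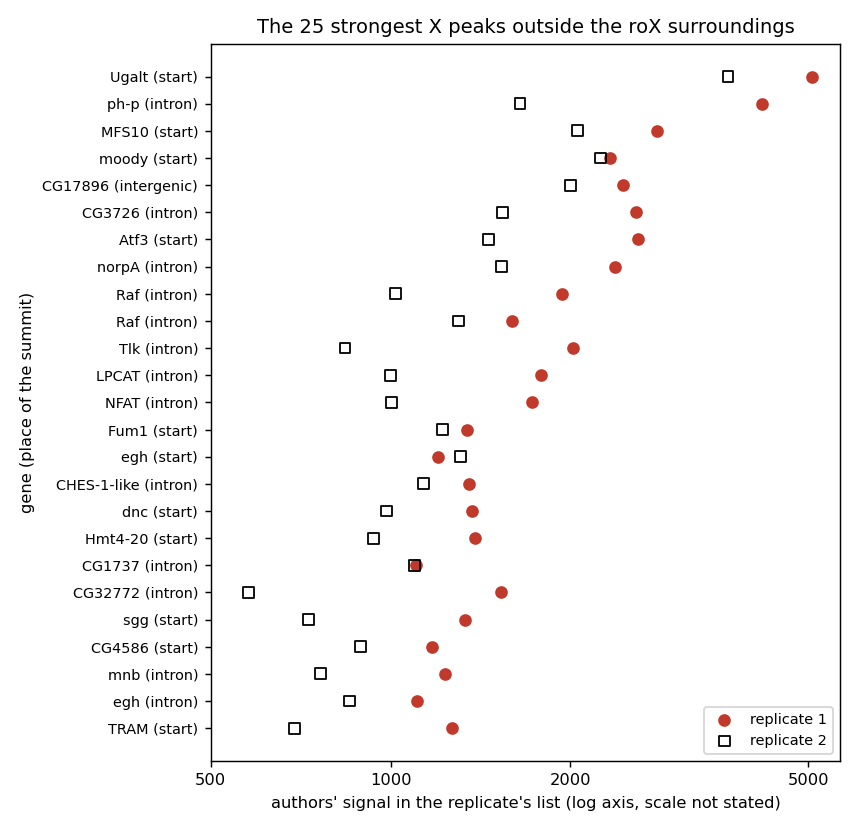
Authors' signal (horizontal axis, logarithmic, scale not stated) of the 25 strongest X peaks in replicate 1 (filled circles) and replicate 2 (open squares), ordered from strongest at the top by the joint signal, with the place of each summit. Both series fall from Ugalt downward, and introns make up 13 of the 25.

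The strongest X peaks were crowded toward the telomere. When the arm was cut into 3 equal parts, 20 of the 25 were in the distal part nearest the telomere, 4 in the middle and 1 in the part at the centromere. Of all X peaks outside the roX surroundings 40.2% were in the distal part, and of X starts 33.2%. Of the starts on 2L, 3L and 3R, 36.8%, 40.8% and 37.6% were in the distal part. On the other arms 17 of the 25 strongest on 2L, 10 on 3L and 12 on 3R were in the distal part of their arm, with 42.3%, 41.4% and 37.5% of all their peaks there. The count on X was 18 in replicate 1 and 19 in replicate 2, against 16 and 17 on 2L. Among the 100 strongest X peaks 57 were there, against 47, 42 and 40 on 2L, 3L and 3R. In replicate 1 alone these counts were 58 on X against 43, 43 and 38. In replicate 2 alone they were 54 on X against 54, 37 and 39, so that X and 2L did not differ there. Between moody and Ugalt, from base 2050283 to base 2703896, lay 8 of the 25 among 77 peaks. This position was noticed in the data, and no test was made of it.

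Neighbouring X peaks were farther apart than those of the other arms at the median, although the X was not the sparser arm. The median gap between neighbouring summits was 4728 bp on X (quartiles 1428 and 16481 bp), against 4037 bp on 2L, 3688 bp on 3L and 3913 bp on 3R. Gaps of at most 1000 bp made up 17.6% on X and 19.9% on the other 3 arms together (ratio 0.883, Fisher's exact test, adjusted p = 0.187), so the share of close neighbours did not differ detectably. In the longer joint list, with 5540 X peaks among 30000, this ratio was 0.917 (adjusted p = 2.07e-07, same exact test).

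Dense runs formed inside a few genes. The most peaks within 10 kb on X was 10, against 12 on 2L, 12 on 3L and 13 on 3R. Runs of 10 lay in Tlk, in CHES-1-like, and across Paics, a purine synthesis gene, and lncRNA:Vinr. Runs of 9 lay across ph-p, Pgd and D2hgdh and across CG2865 and Raf. Signals within the Tlk run ranged from 146.7 to 2866.9. By gene, kirre, an immunoglobulin gene of myoblast fusion that spans 394149 bp, held 23 peaks, Tlk held 20 in 69764 bp, CG1677 17, CHES-1-like 15 in 27048 bp, and Raf 14.

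The longest stretch without a peak on X was 811585 bp, from lncRNA:flam, the piRNA cluster flamenco, to CG14621. It spanned chrX:21631662-22443247, its sequence was 34.7% soft-masked and 7.93% unresolved bases, and it held 21 coding genes and 2 peaks of the joint list. The next was 267719 bp long, between lncRNA:CR43838 and CG1532, with 12 coding genes, among them shakB, a gap junction gene, and 22 joint peaks. Then came 213978 bp, between Ten-a, a teneurin gene, and Rab40, with 20 joint peaks. Repeats made up 21.5% and 20.9% of these stretches, close to the 21.1% of the whole X.

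A larger share of coding genes carried a promoter peak on X than on the other 3 arms together. Of 2196 coding genes on X, 629 had a summit within 500 bp of a start, or 28.6%, against 24.2% on 2L, 27.9% on 3L and 23.9% on 3R, where 25.9% is the share over all 4 arms. The X share was 1.14 times that of the other 3 arms (Fisher's exact test, adjusted p = 0.00240), with 3L near the X. With replicate 1 alone the ratio was 1.06 (adjusted p = 0.147, same exact test). A gene counts if any of its starts has a summit, and the number of starts per gene was not taken into account. The X had 3538 merged starts for 2813 genes of all kinds. The counts were 4203 for 3611 on 2L, 4262 for 3540 on 3L and 5084 for 4332 on 3R.

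Genes of the cytoplasmic ribosome were the most fully bound of the 12 X-linked lists. All 15 of them on X had a promoter peak (exact 95% interval of the share 78.2% to 100%), against 42 of 56, or 75%, on the other 3 arms, and against 28.6% of coding genes on X. RpS28b was strongest with signals of 637.9 and 764.5 in replicates 1 and 2, RpL22 had 627.5 and 536.1, and RpL17 548.4 and 448.1. The weakest, RpS14a, had 61.6 and 104.0. RpS5a had no summit in replicate 1 within 200 bp. Summits of the 15 lay between 1 and 68 bp from the start. In the strongest 7944 peaks of each replicate alone the count was 13 in replicate 1 and 15 in replicate 2. The median joint signal of the 15 was 563.3, against 278.0 for all X promoter peaks.

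Of the mitochondrial ribosomal protein genes 2 of 11 had a promoter peak on X (mRpL33 and mRpL49), against 24 of 50 on the other 3 arms. Of the oxidative phosphorylation genes 4 of 13 had a promoter peak on X, against 26 of 60 on the other arms. These were ND-ASHI with 2554.0, COX6B, a subunit of cytochrome oxidase, with 937.8, UQCR-14 of complex III with 429.8, and ND-B14.5A with 173.8, and the last had no summit in replicate 1. The intervals of 2.28% to 51.8% and of 9.09% to 61.4% around the X shares are wide, and both include the 25.9% of all coding genes.

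Chromatin and Polycomb genes had a promoter peak in 13 of 22 cases on X. Top1, the DNA topoisomerase, was strongest with 1290.5, then fs(1)h, the BET bromodomain gene, with 1068.5, and Set2, the histone H3 lysine 36 methyltransferase gene, with 491.2. G9a, wapl, ph-p, ph-d, Trf2, nej, e(y)3, Smr, Rbf and e(y)2 followed with signals between 152.1 and 468.0. The list's share was 59.1% (exact interval 36.4% to 79.3%), against 28.6% of coding genes on X and 25.9% over the 4 arms. Its count was 11 in replicate 1 and 14 in replicate 2 taken alone. A summit at any start counts, also at one inside the gene, such as those of Top1 and wapl. Gene length and number of starts were not taken into account. The list holds X genes only and was chosen with earlier results of these data known. The remaining 9 had none, among them HP1b, Tip60, trr and mof, the acetyltransferase of the MSL complex, whose nearest summit was 3792 bp away. Set2 and Rbf had no summit in replicate 1.

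Genes used in neurons and the eye had a promoter peak in 13 of 21 cases, or 61.9% (exact interval 38.4% to 81.9%), against 28.6% of coding genes on X. The count was 11 in replicate 1 and 13 in replicate 2 alone. A summit at any start counts, also at one inside a long gene. That of dnc, a gene from base 3176440 to base 3343767, lay at base 3295004. Gene length and number of starts were not taken into account, and the list holds X genes only. After dnc came norpA with 992.3, at a summit it shares with mRpL33, and eag, a potassium channel gene, with 898.2, then elav, the neuronal RNA-binding protein gene, with 605.0. Para, per, Appl and cac were among the 8 without. Embryonic patterning genes had one in 7 of 26, or 26.9%, against 25.9% of coding genes over the 4 arms. That count depended on the library, at 11 in replicate 1 alone and 8 in replicate 2 alone. They were led by sgg with 2086.3, dlg1 with 1299.6 and N, the Notch receptor gene, with 495.4. Of the 6 genes of sex determination and X counting only Sxl, the master switch of female fate, had one, with 724.0 at 424 bp from a start. The genes sc, sisA, run, upd1 and snf had none. The exact interval of the share in this list runs from 0.421% to 64.1%. It includes the 28.6% of coding genes on X, so no lack of peaks is read from it.

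Metabolic and pigment genes had a promoter peak in 6 of 9 cases (exact 95% interval 29.9% to 92.5%), against 28.6% of coding genes on X and 25.9% over the 4 arms. They were led by Hex-A, a hexokinase gene, with 689.8, Zw, which encodes glucose-6-phosphate dehydrogenase, with 586.5, and ras, the IMP dehydrogenase gene, with 455.9. Ant2 and sesB, which overlap, count through the same summit, although the interval treats them as independent genes. White, yellow and vermilion (w, y and v) had none. Yolk, chorion and ovary genes had none in 11, which allows a share of up to 28.5% by the exact interval. Cell cycle genes had 1 in 11, Rbf, but the count was 0 in replicate 1 alone and 5 in replicate 2 alone, so that no share is read from it. Among RNA genes, set against 22.6% of all genes of the 4 arms, 2 of 26 tRNA genes and 4 of 32 snRNA and snoRNA genes on X had a summit near the start, against 28 of 169 and 21 of 163 on the other arms. The tRNA count was 3 in replicate 1 alone and 1 in replicate 2 alone. The tRNA gene with the strongest peak, tRNA:Phe-GAA-1-2, and snoRNA:Psi28S-1232 share their summit with RpL17.

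Of the 8 words searched, which have known binders or are simple repeats, the run of A bases alone differed between X and the other arms at IDR summits. A word was counted on either strand within 100 bp of the summit, and p-values were adjusted over the 8 words. The run AAAAAAAA was in 8.42% of X windows (7.06 to 9.95), against 5.22% of those on the other 3 arms (ratio 1.61, Fisher's exact test, adjusted p = 8.71e-05), and in 7.03% against 5.35% among the stronger 3972 peaks (ratio 1.31, adjusted p = 0.530, same exact test). The same windows moved 500 bp to each side held it in 20.6% on X and in 10.5%, 12.4% and 10.4% on 2L, 3L and 3R, and tiles over the whole arm in 15.8% on X and in 9.89%, 10.03% and 9.06%. Summits thus held it less often than their surroundings on every arm, 0.408 times as often on X and between 0.454 and 0.480 times on the others.

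Words of promoter-binding proteins were at summits more often than beside them on all arms. TATCGATA, bound by DREF and the insulator protein BEAF-32, was in 4.98% of X summit windows and 1.21% of their flanks. Its share on the other 3 arms together was 3.80% (ratio 1.31, exact test, adjusted p = 0.102). GGTCACACT, the core of the motif of M1BP, was in 2.90% of X windows, against 2.65% on the other arms (ratio 1.09, exact test, adjusted p = 0.669). CATCNCTA, core promoter motif 7, was in 4.92%, against 3.59% (ratio 1.37, exact test, adjusted p = 0.0991). On X, TATCGATA was in 10.04% of promoter windows and 0.627% of the others, and GGTCACACT in 5.53% and 0.627%.

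GA repeats, the core of the sites where the MSL complex enters the X, gave no stable difference between X and the other arms. GAGAGAGA, which GAGA factor and CLAMP bind, was in 54 X windows, or 3.64% (2.74 to 4.72), against 2.79% on the other 3 arms (ratio 1.30, Fisher's exact test, adjusted p = 0.158). It was in 3.13% of the X flanks, so the share at summits was 1.16 times that beside them, against 1.67, 1.31 and 1.23 times on 2L, 3L and 3R. The word was commoner over the whole X as well, in 1.54% of tiles against 1.02%, 1.09% and 1.05% on these arms. Within 50 bp of the summit the ratio of X to the other 3 arms was 1.77 (adjusted p = 0.0442) and in the joint list 1.69 (adjusted p = 1.11e-09), whereas among the stronger 3972 peaks it was 0.988, all by the same exact test. None of the 25 strongest X peaks held GAGAGAGA. By the same exact test, CACACACA was in 9.23% against 7.54% (adjusted p = 0.0991), CAGGTAG, the word of Zelda, in 1.28% against 0.945% (adjusted p = 0.402), and TATATATA in 1.75% against 1.85% (adjusted p = 0.912).

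**Figure D5:**
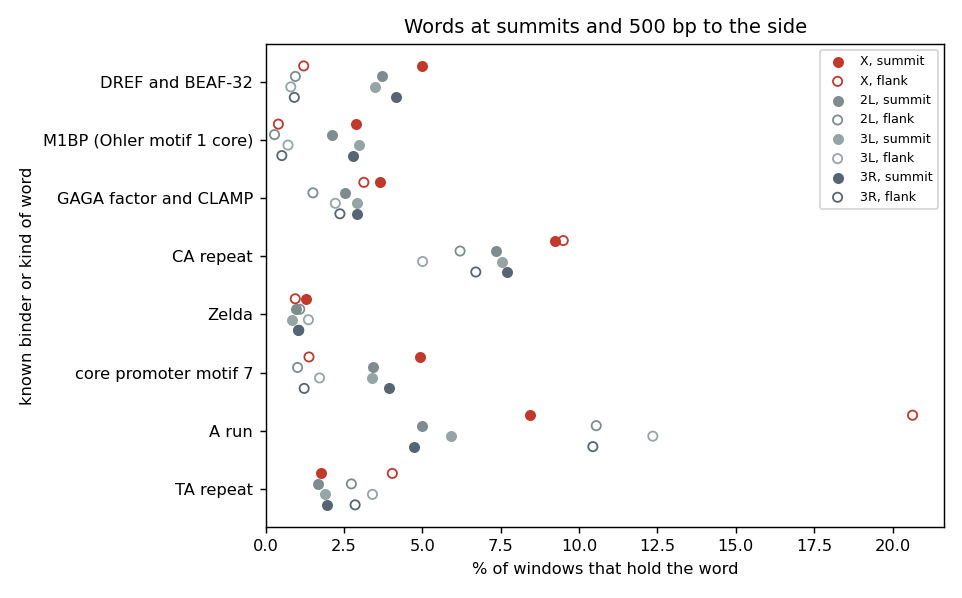
Percent of windows of 100 bp to each side (horizontal axis) that hold each word, at summits (filled) and in the windows 500 bp to either side (open), for X (red) and for 2L, 3L and 3R (greys), by the word's known binder or kind. X flanks hold A runs in 20.6% of windows, the highest share shown, and X summits in 8.42%.

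For each of the 3 promoter words and for the GA repeat, the strongest X peak with the word within 60 bp of its summit shows how the word sits in bound sequence. Capitals mark only the word for which a stretch is shown (on the forward strand of dm6, so that the cib and Pp2C1 sites read as reverse complements). The Pp2C1 stretch also holds the A run, as its reverse complement and left in lower case. The first is 88 bp from a start of PhKgamma, a phosphorylase kinase gene, at chrX:11694989-11695109 (signal 963.4), the next 167 bp from a start of cib, an actin-binding protein gene, at chrX:4105886-4106006 (944.7), then the peak in an intron of Pp2C1, a protein phosphatase gene, at chrX:4684728-4684848 (1119.0), and the last in an intron of Raf at chrX:2302241-2302361 (545.6).
PhKgamma: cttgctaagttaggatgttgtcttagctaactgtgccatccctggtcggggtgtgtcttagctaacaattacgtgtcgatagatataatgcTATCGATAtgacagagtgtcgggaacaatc
cib: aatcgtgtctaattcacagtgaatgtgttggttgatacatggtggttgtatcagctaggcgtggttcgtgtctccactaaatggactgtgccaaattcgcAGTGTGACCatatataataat
Pp2C1: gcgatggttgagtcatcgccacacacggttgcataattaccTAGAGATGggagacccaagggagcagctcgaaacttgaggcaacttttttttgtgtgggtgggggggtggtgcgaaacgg
Raf: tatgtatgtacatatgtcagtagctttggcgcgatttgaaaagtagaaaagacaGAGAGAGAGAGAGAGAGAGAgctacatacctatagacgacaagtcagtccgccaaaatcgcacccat
By the same bound of 60 bp, the strongest X peaks with the other words lay at Hmt4-20 (A run, signal 2314.3), in introns of Tlk (TA repeat, 2866.9) and Unc-76 (CA repeat, 1095.8), and in CG7872 (Zelda word, 1739.9). Within 100 bp, the strongest X peak with the CA repeat was instead an intron peak of Raf (2889.9).

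The replicates overlapped on X about as on the other arms. Of the X peaks among the strongest 7944 of replicate 1, 72.7% had a summit of replicate 2 within 200 bp, against 73.1% on 2L, 70.5% on 3L and 70.4% on 3R, and in the other direction 71.0% against 73.8%, 71.6% and 70.6%. Within 50 kb of the roX genes lay 17 X peaks. The peak at lncRNA:roX2 had a signal of 551.7 (rank 241 on X) and that at lncRNA:roX1 393.3 (rank 428).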

How the data were processed

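Peak lists on assembly dm6 were taken as the authors deposited them: 1 per replicate, 1 called on both replicates together and the IDR list derived from these, per the deposited descriptions. The signal of each peak and its −log10 q-value are the authors' deposited values; the signal was used to rank peaks and the q-value, which was capped, was not used. The summit position is a score column of the authors (offset from the peak start). Peak caller, aligner and read numbers are not given in the sources used, so depth is unknown and intervals cover counting error of peaks only. The IDR list equals the 7944 strongest peaks of the joint list.

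Starts, genes and sequence came from genome Release 6 with Ensembl 115 annotation (BDGP 6.54). Exact binomial and Fisher's exact tests (SciPy 1.17.1, two-sided) compared each arm with the other 3, with Benjamini-Hochberg adjustment over 4 arms or 8 words; logistic and quasi-Poisson fits used statsmodels 0.14.6. Procedures were tested on simulated data. Genes were named by a fixed rule: those at the 25 strongest X peaks outside the roX surroundings, up to 3 strongest members of each list, those at the strongest peaks of the densest and emptiest windows, those bordering the 3 longest gaps, and the strongest peak with each word; further list members and genes with many peaks were named after their values were seen. Peaks, lists and words were chosen with earlier results of these data known. Alternatives were each replicate alone, the stronger 3972 peaks, the joint list, promoter windows of 200 or 1000 bp, word windows of 50 bp, other spacing bounds, and leaving out repeat-rich windows or the roX surroundings.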

Additional observations from a re-analysis of the deposited data

Results flagged for a closer look

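The odds ratio of X for a peak among the strongest 20% was 0.703 times as large at promoters as away from them (logistic fit over 6353 peaks, 95% interval 0.529 to 0.933), and this difference between both kinds of peak is what drew attention to it.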

How the results depend on the processing

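Ratios of X to the other 3 arms are given throughout. The density of peaks ranged from 1.04 to 1.08 with each replicate left out in turn, and was 1.01 without repeat-rich windows, 1.09 in windows of 100 kb and 1.17 per start in these windows, none of the last 3 past the threshold, and 1.04 (without replicate 2) was not either. The promoter share was 0.896 among the stronger 3972 peaks, where it passed, and 1.05, reversed, in the joint list. The share among the strongest 20% ranged from 1.07 to 1.22 with a replicate left out, and no longer passed at 1.11 (stronger 3972 peaks), 1.05 (joint list), 1.17 (strongest 10%), 1.05 (strongest 50%) and 1.02 (promoter peaks only). For non-promoter peaks alone it was 1.23 among the stronger 3972, below the threshold. Close spacing passed in the joint list at 0.917. Coding genes with a promoter peak ranged from 1.06 to 1.14 with a replicate left out and were 1.095 among the stronger 3972, and no longer passed there or at 1.06 (without replicate 2). The intron share passed in all 6 alternatives run, from 1.13 to 1.27. Among words, reversals were seen for GAGAGAGA (0.988, stronger 3972), CACACACA (0.971, 50 bp), CAGGTAG (0.981 at promoters, 0.997 to 1.19 with a replicate left out) and TATATATA (1.29 in both the stronger 3972 and the joint list, 1.499 within 50 bp, 1.18 away from promoters, 0.923 to 1.06 with a replicate left out). Words that passed the threshold under an alternative only were GAGAGAGA (1.77 within 50 bp, 1.69 in the joint list), CATCNCTA (1.57 within 50 bp, 1.29 in the joint list, 1.41 without replicate 1), TATCGATA (1.61 in the joint list, 1.36 without replicate 1), CACACACA (1.37 in the joint list, 1.30 without replicate 1) and GGTCACACT (1.36 in the joint list). The A run no longer passed at 1.31 (stronger 3972) and 1.43 (away from promoters). The cause of these changes was not tested. Fewer peaks enter the list of 3972, and tests treat peaks as independent. The signal has no stated scale and depth is unknown, so a missing peak is no absence of binding. No paired analysis was possible because there is 1 group.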
